A study of Mus musculus with 6 samples.

Results

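The 43 genes described here encode lysosomal proteins, apart from that of the transcription factor TFEB. They comprise 11 cathepsins and other proteases, 6 membrane proteins, 11 glycosidases and 4 sulfatases. Also among them are 5 lipid enzymes and phosphatases, 2 activator proteins, TFEB and 3 parts of the proton pump. They were listed by name, and all 43 were found among the 56748 mouse genes of the deposited table and passed the filter that left 16162 genes for testing. The tissue was brain from mice that had received MCF10DCIS cells. These are a human line that models ductal carcinoma in situ, and in them the vesicle protein CD63 was labelled with the luciferase NanoLuc. One group was sampled at 3 days and the other at 28 days, with 3 libraries each, and both carried the same cells, so the comparison asks how brain transcripts differed between an early and a late time after implantation. No library without implanted cells was used here, so a difference between the days cannot be told apart from one of age or time alone. The mice's strain, sex and age were not stated in the labels, and neither was the site of implantation. Since the labels also do not say that each library is a different mouse, the p-values measure only the spread between these libraries, which may be technical.

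The lysosome is an acidic organelle in which proteins, lipids and sugar chains taken up by the cell or delivered by autophagy are broken down. A proton pump in its membrane lowers the internal pH, heavily glycosylated membrane proteins line its wall, and soluble hydrolases inside do the digestion. TFEB, a transcription factor, binds a short palindromic DNA element, the CLEAR element, near many lysosomal genes. In brain, loss of single lysosomal enzymes leads to storage diseases that affect neurons, and microglia, the resident phagocytes, express several cathepsins at high levels.

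The core of the CLEAR element, CACGTG, was searched for in RefSeq promoter windows of 250 bases before to 50 bases after a gene's start (build GRCm38.p6, older than the build of the table), because TFEB itself is among the genes. Of the 43 genes, 39 had a window, and Ctsb, Ctsh, Asah1 and Atp6v1h had none. CACGTG, which reads the same on both strands, was present in 15 of the 39 genes and in 33.3% of their 45 windows, against 7.15% of all 32851 windows and 9.42% of the windows of tested genes. The longer GTCACGTG, which contains it and was searched on both strands, was present in 12 genes and 26.7% of their windows, against 2.25% of all windows and 3.76% of the windows of tested genes. Of 69 other lysosomal genes with a window, 16 held CACGTG and 9 held GTCACGTG. A match is a description of the letters and not of binding. The stretches below show matches of some of these genes, limited to those before the gene's start. They are written 5′ to 3′ on the gene's strand, with CACGTG in capitals. They lie at chr7:142387828-142388077 on the minus strand (Ctsd, all 250 bases before the start), chr12:102439112-102439165 on the minus strand (Lgmn, a second annotated start), chr19:4855062-4855115 on the plus strand (Ctsf), chr2:164833737-164833772 on the plus strand (Ctsa), chr8:13159076-13159160 on the plus strand (Lamp1) and chr8:3500424-3500503 on the plus strand (Mcoln1).
Ctsd: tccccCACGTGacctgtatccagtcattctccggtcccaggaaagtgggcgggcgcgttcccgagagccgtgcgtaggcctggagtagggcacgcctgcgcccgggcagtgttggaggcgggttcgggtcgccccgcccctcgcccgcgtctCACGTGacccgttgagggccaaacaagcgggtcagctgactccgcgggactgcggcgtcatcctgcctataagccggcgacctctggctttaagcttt
Lgmn: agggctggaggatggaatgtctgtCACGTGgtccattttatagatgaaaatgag
Ctsf: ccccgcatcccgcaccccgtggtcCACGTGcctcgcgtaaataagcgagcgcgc
Ctsa: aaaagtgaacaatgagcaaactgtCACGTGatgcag
Lamp1: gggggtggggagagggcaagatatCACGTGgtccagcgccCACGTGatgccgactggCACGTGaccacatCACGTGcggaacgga
Mcoln1: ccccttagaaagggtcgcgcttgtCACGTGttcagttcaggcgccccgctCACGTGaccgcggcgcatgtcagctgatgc
Lamp1 held 4 copies between 61 and 15 bases before its start, Ctsd and Mcoln1 held 2 each, and Lgmn and Ctsf held 1. Ctsa held 1 before its start and another, not shown, beginning 5 bases after it. The 15 genes with CACGTG and the 24 without it had the same median log2 difference between the days, -0.19 in both.

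Most of the 43 genes stood slightly lower at day 28, and none passed the test. On the log2 scale, 38 of 43 were lower at day 28 (Glb1 and Manba not with upper-quartile scaling) and 5 were higher, with a median difference of -0.19, against -0.01 over all tested genes. Among all tested genes 51.4% were lower. In limma, 0 of 43 had an adjusted p under 0.05, where 0.192% of all tested genes did, and the smallest value was 0.117, for Lgmn. At an unadjusted p under 0.05 there were 12, of which 11 were lower and 1 was higher, while 6.39% of all tested genes were lower at that limit. The groups did not overlap for 16 genes that were lower at day 28, where 9.21% of all tested genes did so in that direction, and for 1 that was higher, Arsb, where 9.71% did. The share of lysosomal genes lower without overlap was 37.2%. The genes share a tissue and libraries and do not count as independent observations.

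**Figure D1:**
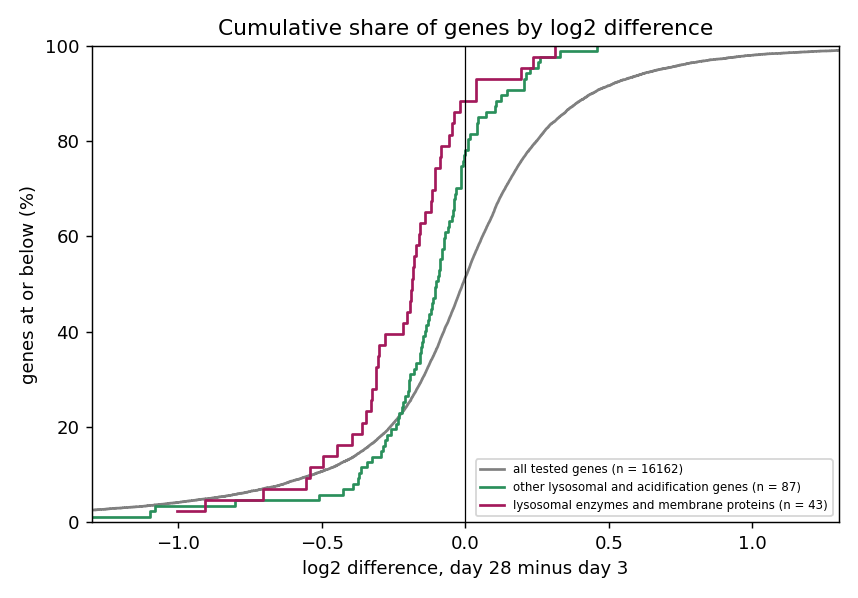
Cumulative share of genes (vertical axis, percent) at or below each log2 difference, day 28 minus day 3 (horizontal axis), for the 43 lysosomal genes, 87 other lysosomal and acidification genes and all 16162 tested genes. The curve of the 43 genes lies to the left of that of all genes near 0, with 38 of 43 below 0, while its lower tail does not reach beyond -1.005.

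Of all reads, the 43 genes together took 0.520%, 0.512% and 0.502% in the 3 early libraries and 0.443%, 0.465% and 0.429% in the 3 late ones. The mean share was 0.511% ± 0.00921 (SD, n = 3) at day 3 and 0.446% ± 0.0182 (SD, n = 3) at day 28, with no overlap between groups. Psap supplied 21.0% to 22.9% of it in each library. The highest of the 6 libraries was day 3 replicate 1 for 16 genes, replicate 2 for 15 and replicate 3 for 7. The lowest was most often day 28 replicate 3, for 17 genes.

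Library depth ran from 11958137 to 16059196 reads, and every one of the 43 genes had at least 44 reads in each library. Neuronal Snap25 stood between 34277 and 36555 normalized counts in all 6, as in brain tissue. The libraries of day 3 were less alike than those of day 28. The summed level of 15 cerebellar neuron genes was 35528 and 34875 in day 3 replicates 1 and 2 and 6250 to 9959 in the other 4 libraries. Among these genes Gabra6 stood at 2102 and 2177 in day 3 replicates 1 and 2, 200 in day 28 replicate 3 and 0 elsewhere. The summed level of 16 interferon-stimulated genes was 9811 in day 3 replicate 1 and 824 to 2623 elsewhere. That of 8 genes for liver-made plasma proteins was 108879 in day 3 replicate 2 and 6264 to 11950 elsewhere. Outside day 3 replicate 2 most of this sum came from Ttr (6230 to 11029). Alb stood at 67650 in day 3 replicate 2 and 21.1 to 1139 elsewhere. Without day 3 replicate 1 the median difference of the 43 genes was -0.17, without replicate 2 it was -0.17, and without both it was -0.15. It was -0.16 with the cerebellar genes as a covariate.

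Some cell type markers also differed between the days, and bulk tissue does not tell fewer cells of a type from less RNA per cell. Of 17 microglia markers, 10 were lower at day 28, and their summed level, 5904 to 9784 at day 3 and 6135 to 6983 at day 28, overlapped. The purinergic receptor gene P2ry12 was higher at day 28 (440, 345 and 510 against 671, 708 and 567) while the microglial membrane protein gene Tmem119 was lower (306, 300 and 360 against 267, 281 and 200). Neither passed. With the microglia markers as a covariate the median of the 43 genes was -0.18. Myelinating oligodendrocyte markers were lower for 9 of 10 genes, with sums of 115333 to 137190 at day 3 and 78294 to 97127 at day 28 that did not overlap. Border macrophage markers summed to 111 to 145 at day 3 and 50 to 91.8 at day 28, with 3 of 7 genes high enough to test, all 3 lower, and Lyve1 below the filter. Fibroblast markers were lower for 7 of 8 genes, of which Dcn passed the test (log2 -1.81, limma adjusted p = 0.0345), with sums of 1398 to 1502 and 1040 to 1236. Astrocyte markers were lower for 8 of 10 genes, 1 of which passed the test, with a median log2 difference of -0.50. The groups did not overlap for 4 that were lower, against 9.21% of all tested genes, and for 1 that was higher, against 9.71%. Their sums overlapped, 69477 to 72979 and 67183 to 70452. The most abundant of them, Slc1a2, was the 1 higher without overlap, with means of 29532 and 38065. Neuronal markers were lower for 6 of 10 with overlapping sums, 116365 to 124248 and 118557 to 124548. Neutrophil and monocyte markers summed to 18.26 to 126 at day 3 and 8.04 to 16.0 at day 28, with 1 of 10 tested, S100a9. In each of these lists no marker was at 0 in all 6 libraries. The part of the oligodendrocyte, macrophage, fibroblast, astrocyte and neutrophil markers in the lysosomal difference was not tested.

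**Figure D2:**
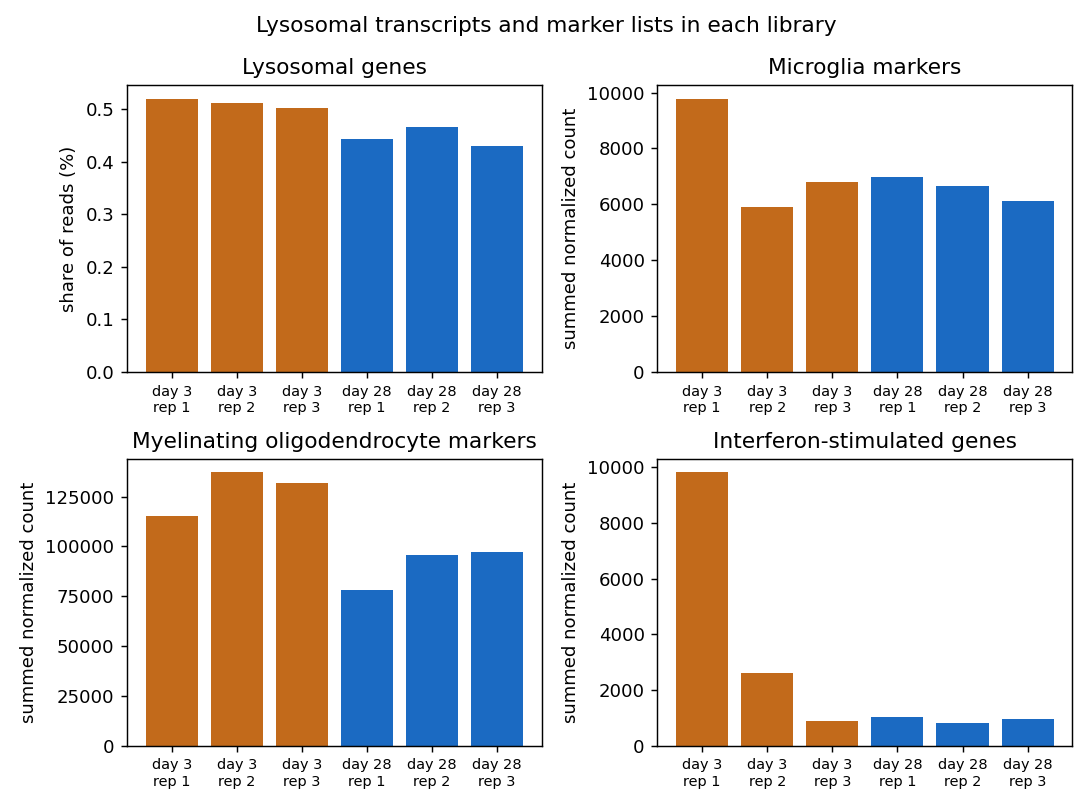
Share of reads held by the 43 lysosomal genes (percent) and summed normalized counts of 3 marker lists in each of the 6 libraries. The lysosomal share is 0.502% to 0.520% at day 3 and 0.429% to 0.465% at day 28, the oligodendrocyte sums also do not overlap, and the interferon-stimulated genes stand at 9811 in day 3 replicate 1.

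The proteases had the lowest values of any role. All 11 were lower at day 28 on the log2 scale, 8 of them without overlap, with a median of -0.40. Lgmn is the asparagine endopeptidase legumain, which also matures cathepsins. It stood at 2151, 2014 and 1832 normalized counts at day 3 and 1452, 1574 and 1370 at day 28. Every day 28 library was below every day 3 library, and the log2 difference was -0.45 (SE 0.10, limma adjusted p = 0.117). Ctsf, a cysteine cathepsin whose loss causes a neuronal storage disease, stood at 758, 722 and 680 and then at 574, 483 and 480 (log2 -0.49, SE 0.11, adjusted p = 0.126). Its groups were also apart.

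Ctsb, Ctsd and Ctsa had small differences with little spread. Ctsb, a cysteine protease that is among the most abundant cathepsins of brain, stood at 6182, 6744 and 6272 at day 3 and at 5051, 5223 and 5009 at day 28 (log2 -0.33, SE 0.08, adjusted p = 0.136). Ctsd, the main aspartic protease of the lysosome, stood at 1732, 1755 and 1755 and then at 1327, 1485 and 1322 (log2 -0.34, SE 0.09, adjusted p = 0.149). Ctsa, a carboxypeptidase that also protects the sialidase NEU1 and β-galactosidase, stood at 1387, 1451 and 1398 and then at 1148, 1182 and 1154 (log2 -0.28, SE 0.08, adjusted p = 0.192). For these 3 genes the day 28 mean differed from the day 3 mean by -21.1% to -17.7%, and no library of one day reached a value of the other.

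A second set of proteases was high in single day 3 libraries. Ctss, a cathepsin of microglia and other antigen-presenting cells, stood at 2968 in day 3 replicate 1, against 912 and 982 in the other day 3 libraries and 888, 855 and 807 at day 28. Its log2 difference of -0.70 (SE 0.38, adjusted p = 0.463) was -0.16 without that library. Ctsc, which activates the serine proteases of immune cells, stood at 475, 161 and 128 and then at 124, 116 and 83.4 (log2 -1.005, SE 0.44, adjusted p = 0.370), and the difference was -0.43 without day 3 replicate 1. In both genes the groups did not overlap, and day 3 replicate 1 was also the highest library for microglia markers (9784 against 5904 to 6983) and for interferon-stimulated genes. With the microglia markers as a covariate the differences were -0.46 for Ctss and -0.77 for Ctsc, and the part of the interferon-stimulated genes was not tested.

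Ctsl and Ctsh were highest in day 3 replicate 2, the library with the most liver-made transcripts, whose part was not tested either. Ctsl, a cysteine protease that also processes neuropeptide precursors, stood at 1231, 1920 and 1245 and then at 1060, 1180 and 1111 (log2 -0.36, adjusted p = 0.393), and the difference was -0.15 without that library. Ctsh, an aminopeptidase, stood at 117, 165 and 53.5 and then at 61.9, 54.5 and 45.5 (log2 -0.91, SE 0.40, adjusted p = 0.370), with day 3 replicate 3 inside the day 28 range. Its difference was -0.56 without day 3 replicate 2 and -0.0003 without both day 3 libraries rich in cerebellar transcripts. Ctsz, a carboxypeptidase common in microglia, stood at 899, 751 and 538 and then at 609, 539 and 485 (log2 -0.40, adjusted p = 0.401), and overlapped. Its difference was -0.23 without day 3 replicate 1 and 0.01 without both libraries. Tpp1, the tripeptidyl peptidase lost in a childhood neuronal ceroid lipofuscinosis, was closest to 0 among the proteases, with 797, 708 and 738 against 759, 629 and 678 (log2 -0.12, adjusted p = 0.679).

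**Figure D3:**
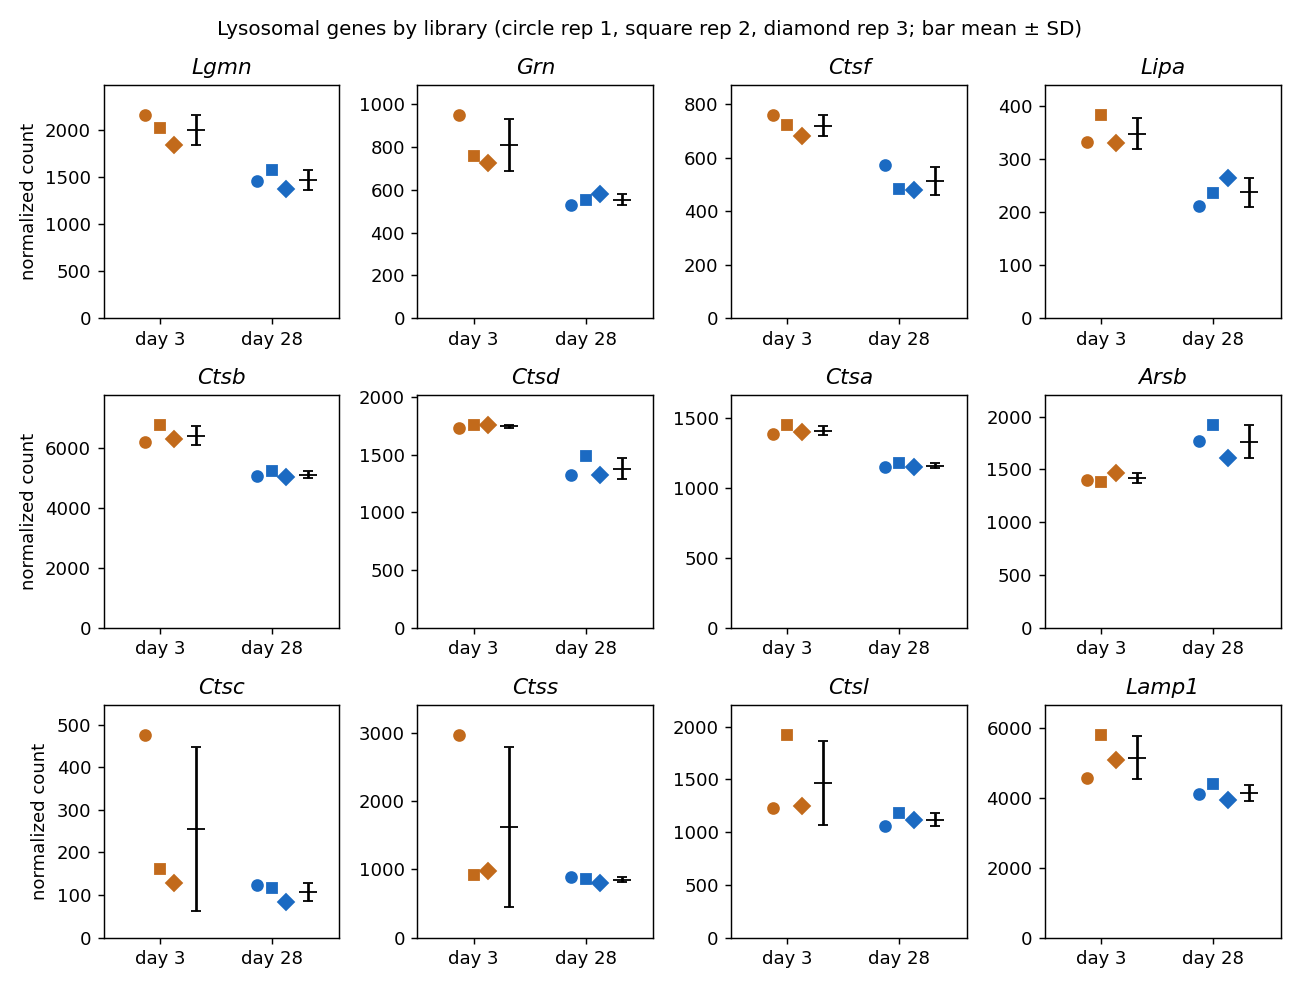
Normalized counts of 12 lysosomal genes in each library (vertical axes start at 0), with circles, squares and diamonds for replicates 1 to 3 and the mean ± SD beside them. The groups are apart in all 12, and at day 3 replicate 1 stands above the other libraries for Ctsc and Ctss (475 and 2968) and replicate 2 for Ctsl (1920).

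Of the membrane proteins only Lamp1 had groups apart. Lamp1, the main glycoprotein of the lysosomal wall, stood at 4584, 5813 and 5090 at day 3 and at 4116, 4411 and 3957 at day 28 (log2 -0.31, SE 0.10, adjusted p = 0.249), and the difference was -0.22 without day 3 replicate 2. Its relative Lamp2, which also serves chaperone-mediated autophagy, stood at 1406, 1677 and 1110 and then at 1046, 1114 and 1176 (log2 -0.31, adjusted p = 0.401), with day 3 replicate 3 among the day 28 values. Its difference was -0.17 without day 3 replicate 2 and 0.0014 without both day 3 libraries rich in cerebellar transcripts. Cd68, a LAMP-family protein of macrophages and microglia, stood at 219, 112 and 113 and then at 142, 99.1 and 103. Its log2 difference was -0.31 (adjusted p = 0.695) and 0.01 without day 3 replicate 1. Scarb2, the receptor that carries glucocerebrosidase to lysosomes, was nearly level at 2645, 2642 and 2535 against 2484, 2589 and 2444 (log2 -0.06, 95% interval -0.23 to 0.12). The calcium channel gene Mcoln1 (log2 -0.19) and the neuronal ceroid lipofuscinosis gene Cln3 (log2 0.20) overlapped between days. Without day 3 replicate 1 they stood at -0.07 and 0.50, and Cln3 was at -0.01 without day 3 replicate 3.

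Among the 11 glycosidases, which trim sugar chains from glycoproteins and glycolipids, 10 were lower and 1 had groups apart, with a median of -0.16. That gene was Hexa, the α chain of β-hexosaminidase, at 672, 643 and 811 against 570, 521 and 599 (log2 -0.33, SE 0.12, adjusted p = 0.296). Gaa, the acid α-glucosidase that degrades glycogen, was the glycosidase with the highest level per length and stood at 4652, 5238 and 5077 against 4303, 5232 and 3969 (log2 -0.16, adjusted p = 0.593). Galc, which degrades the myelin lipid galactosylceramide, was the exception in sign at 428, 324 and 357 against 521, 377 and 410 (log2 0.23, adjusted p = 0.574), and overlapped. The remaining 8, Naglu, Man2b1, Neu1, Gusb, Gla, Idua, Glb1 and Manba, lay between -0.30 and -0.02 with overlapping groups, and with upper-quartile scaling Glb1 (0.0015) and Manba (0.02) were above 0. Without day 3 replicate 1, Man2b1 (0.03), Idua (0.18) and Manba (0.02) had the other sign, as did Glb1 without day 3 replicate 2 (0.17), Gla without day 28 replicate 3 (0.01) and Manba without day 28 replicate 1 (0.09).

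The sulfatases, which remove sulfate from glycolipids and glycosaminoglycans, were the role that did not lean to lower values, with 3 of 4 higher on the log2 scale. Arsb, which acts on dermatan and chondroitin sulfate, stood at 1403, 1378 and 1469 at day 3 and at 1765, 1919 and 1607 at day 28 (log2 0.31, SE 0.09, adjusted p = 0.207). Its lowest day 28 library lay above its highest day 3 library, the only one of the 43 genes of which that was true. Arsa, which degrades the myelin lipid sulfatide, stood at 380, 458 and 357 against 342, 356 and 356 (log2 -0.17, adjusted p = 0.619), apart by less than 1 count, and its difference was -0.07 without day 3 replicate 2. Ids, the iduronate sulfatase with the highest level of the 4, stood at 5096, 5385 and 6533 against 6040, 6095 and 5264 (log2 0.04, 95% interval -0.22 to 0.30). Sgsh had a log2 difference of 0.04, with a lower mean at day 28 (116 against 113), so that its sign depended on the scale. Without day 3 replicate 3 the difference of Sgsh was -0.31 and without day 28 replicate 2 it was -0.09. That of Ids was -0.04 without day 3 replicate 1, so that of the 3 higher sulfatases Arsb alone kept its sign with any single library left out.

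Among lipid enzymes and activator proteins, Lipa and Grn had the greatest differences. Lipa, the acid lipase that frees cholesterol from its esters, stood at 332, 382 and 330 and then at 211, 236 and 264 (log2 -0.56, SE 0.14, adjusted p = 0.159). Grn, the precursor of the granulins, whose loss in people causes frontotemporal dementia or a ceroid lipofuscinosis, stood at 949, 760 and 724 and then at 530, 551 and 581 (log2 -0.54, SE 0.13, adjusted p = 0.126). Their day 28 means differed from those of day 3 by -31.9% and -31.7%, and neither had overlapping groups. Psap, the precursor of the saposins that help enzymes reach their lipid substrates, stood at 15068, 16108 and 16730 against 13931, 15209 and 13228, with day 28 replicate 2 above the lowest day 3 library (log2 -0.18, adjusted p = 0.442).

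The other lipid enzymes had smaller differences. Smpd1, the acid sphingomyelinase, stood at 943, 1126 and 961 against 870, 905 and 865 (log2 -0.19, adjusted p = 0.447), and Asah1, the acid ceramidase, at 789, 802 and 730 against 705, 720 and 679 (log2 -0.14, adjusted p = 0.563). Both had groups apart by a small margin, and Smpd1 was at -0.11 without day 3 replicate 2. Ppt1, which removes palmitate from proteins, stood at 1707, 1838 and 1856 against 1623, 1586 and 1819 (log2 -0.11), and Acp2, an acid phosphatase, had a log2 difference of -0.05 with a 95% interval of -0.24 to 0.15.

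Tfeb itself was a low gene, with 125, 111 and 106 normalized counts at day 3 against 101, 96.4 and 98.6 later. The late libraries were all below the early ones, with a log2 difference of -0.20 (SE 0.19, 95% interval -0.63 to 0.23, adjusted p = 0.691). Of the proton pump, Atp6v0d1, a subunit of the membrane part, stood at 1985, 2455 and 2483 against 2038, 2325 and 2147 (log2 -0.08, adjusted p = 0.788). Atp6v1h, of the cytosolic part, had a log2 difference of -0.09 and the accessory subunit gene Atp6ap1 one of -0.18. All 3 overlapped between days, and Atp6v1h was at 0.01 without day 28 replicate 1.

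**Figure D4:**
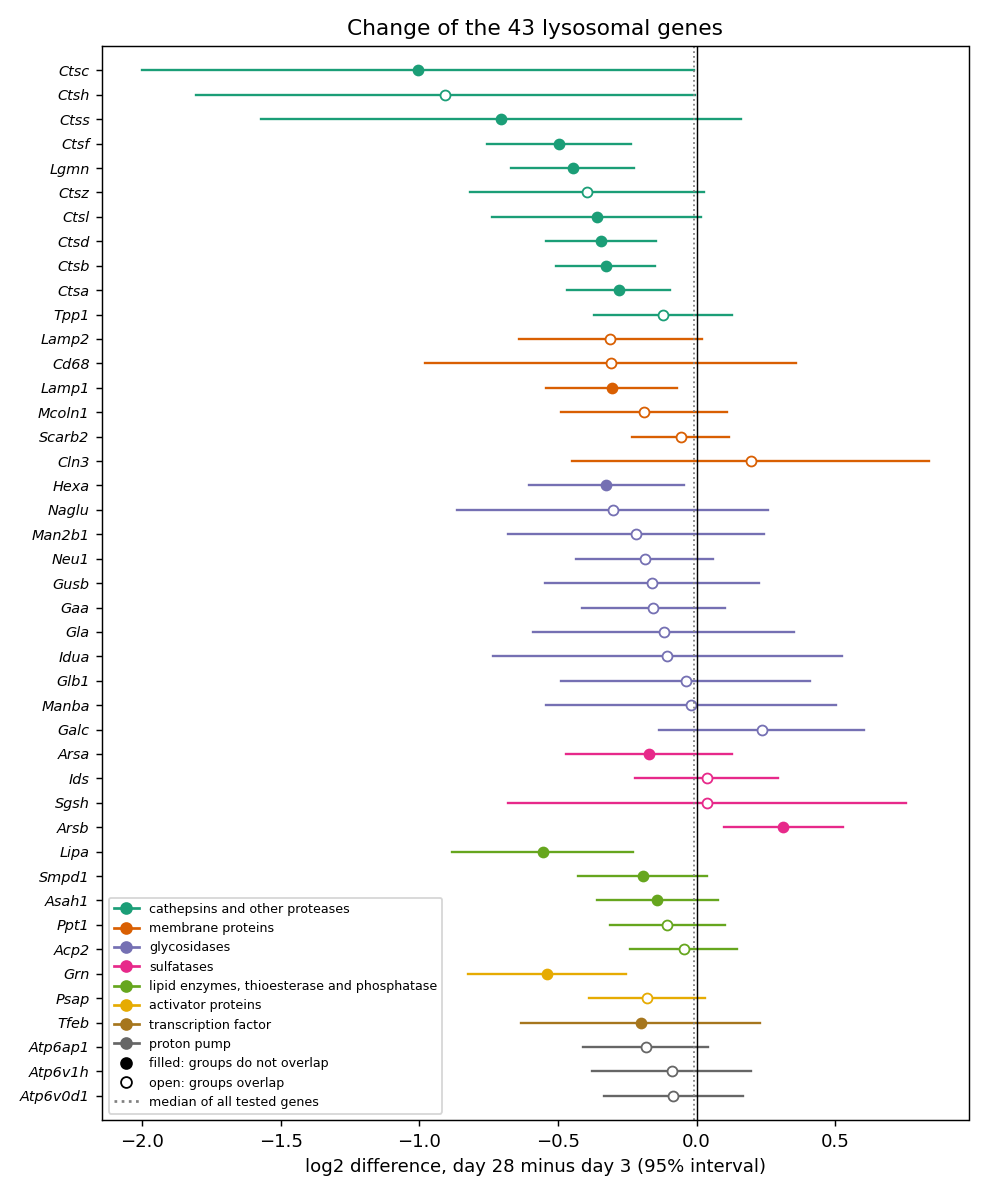
Log2 difference of each of the 43 genes, day 28 minus day 3, with its 95% interval from limma, grouped by role. Filled points mark genes whose groups do not overlap. The proteases reach furthest to the left and Arsb is the filled point on the right, at 0.31.

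Under the limma fit, the 95% intervals set limits on the size of the difference between these libraries only. They lay within a 2-fold change in either direction for 40 of the 43 genes. The exceptions were Ctsc, Ctsh and Ctss, whose intervals reached beyond a 2-fold lower level and whose day 3 values differed most between libraries, by 3.72, 3.07 and 3.25 times. For 31 genes the interval included 0. Spread within day 3 exceeded 1.5 times between the highest and lowest library for 13 genes, and within day 28 for 0.

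**Figure D5:**
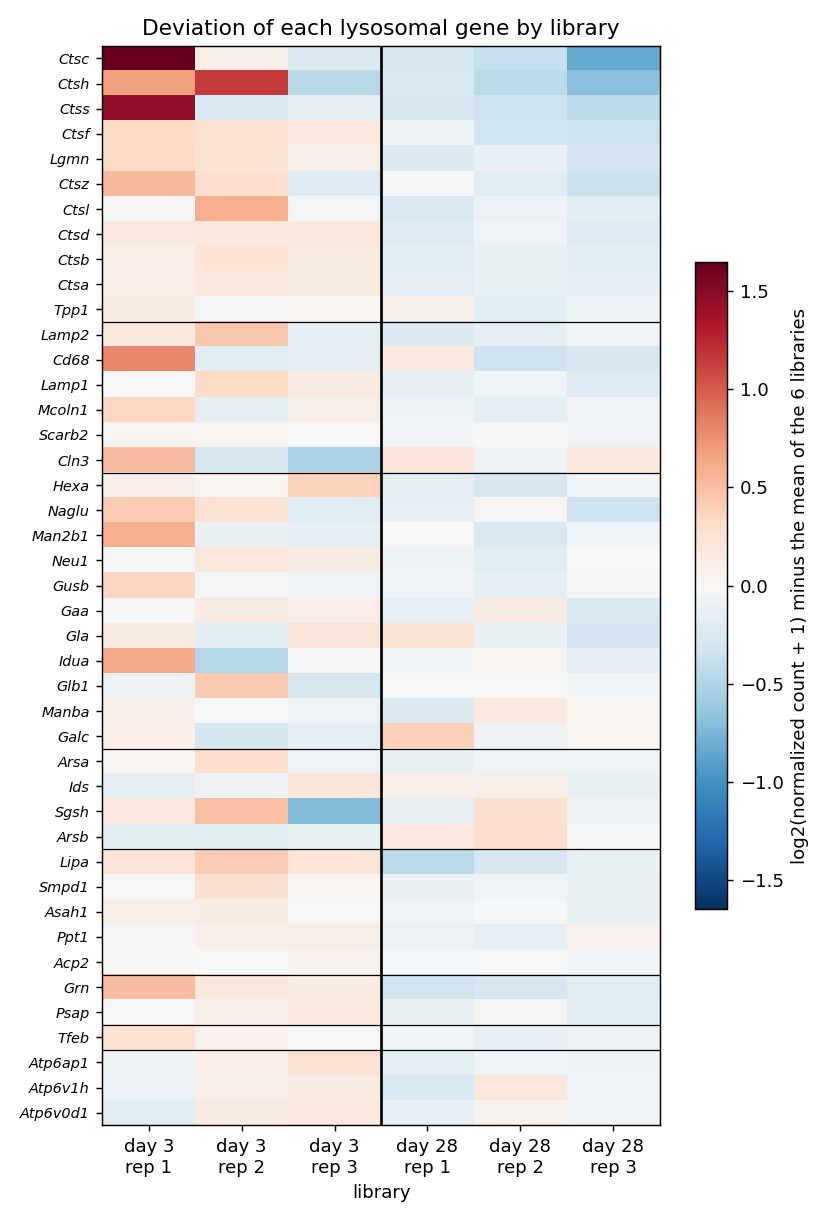
Deviation of each gene in each library from its mean over the 6 libraries, on the log2(normalized count + 1) scale, with red above and blue below the mean and horizontal lines between roles. Ctsc and Ctss are darkest in day 3 replicate 1 and Ctsh in day 3 replicate 2, while Ctsb, Ctsd and Ctsa are evenly above their means at day 3 and below at day 28.

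Calls depended on 1 library, day 3 replicate 3. Leaving it out kept at day 3 only the libraries rich in cerebellar transcripts, so that day and cerebellar content cannot be told apart. Without day 3 replicate 3, limma called 3 of the 43 genes, all lower at day 28, in a fit that called 623 of all tested genes. They were Lgmn (log2 -0.51, adjusted p = 0.0360, range over all alternatives 0.0360 to 0.567), Ctsh (log2 -1.36, adjusted p = 0.0447, range 0.0447 to 1) and Grn (log2 -0.62, adjusted p = 0.0460, range 0.0460 to 0.623). In every other fit, voom on the recovered reads included, 0 of the 43 passed. At an unadjusted p under 0.05 voom gave 10 with the deposited scaling and 11 with total reads. The main fit gave 12 at that limit, and 2161 of all 16162 tested genes. The share of all tested genes under voom is not given here, so its counts cannot be set against it.

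Levels can be compared between genes only per length, here as the mean normalized count of the 6 libraries per kilobase of annotated exon. Psap was highest at 5483, followed by Lamp1 at 1743. Atp6v0d1 (1249) and Atp6ap1 (1238) followed, and their order does not stand against a spread of 1.25 times between day 3 libraries in each. The next were Ids (1124), Gaa (992), Ctsb (950) and Ctss (910). The rank of Ctss depended on the day: it stood at 1193 at day 3 and 626 at day 28, there below Lgmn (631). At the lower end were Cln3 (19.9), Tfeb (18.7), Ctsh (18.4) and Manba (10.8). Exon lengths come from an older annotation than the table's and count all annotated exons, which lowers the level of genes with long rarely used exons.

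Exons of 14 of the 43 genes overlap those of another protein-coding gene, for 2 on the same strand, and the counting was not stated to use strand. Among them, Ctsb overlaps Fdft1, Grn overlaps Fam171a2, Lamp1 overlaps Grtp1, Hexa overlaps Tmem202, and Ctsa overlaps Neurl2 and Pltp. The same holds for Ctsz with Nelfcd, Ppt1 with Cap1, Acp2 with Ddb2, Cln3 with Apobr, Idua with Dgkq and Slc26a1, Sgsh with Card14 and Atp6v1h with Rgs20, so that reads of these pairs may not be fully told apart. On their own strand, Ctsd overlaps Gm49369, Glb1 overlaps Tmppe, and Ctsl overlaps the pseudogene Gm49230.

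The wider lysosomal system was given by 93 further genes chosen by function, of which 87 were tested. In limma 0 passed, 67 were lower and 20 higher. At an unadjusted p under 0.05 there were 12, of which 8 were lower and 4 higher, a share of 87 much like that of all tested genes (2161 of 16162). Their median difference was -0.10, and the groups did not overlap for 17 that were lower, 19.5% of those tested against 9.21% of all genes, and for 4 of the 87 that were higher, a smaller share than the 9.71% of all genes. Hydrolases and cofactors were lower for 21 of 25, membrane proteins and channels for 16 of 19, proton pump subunits for 14 of 15 and regulators for 10 of 15. The delivery and sorting genes, such as the mannose 6-phosphate receptors, were divided, with 6 lower and 7 higher.

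The 8 further genes with groups apart and the greatest differences were mostly hydrolases and cofactors. Npc2, which passes cholesterol from the lysosome's interior to its membrane, stood at 984, 799 and 848 at day 3 and at 548, 659 and 641 at day 28 (log2 -0.51, adjusted p = 0.135). Gm2a, the activator that presents gangliosides to β-hexosaminidase, stood at 1173, 1228 and 1134 against 963, 924 and 849 (log2 -0.37, adjusted p = 0.151). Laptm4a, a membrane protein of late endosomes and lysosomes, stood at 2076, 2398 and 2365 against 1794, 1803 and 1667 (log2 -0.38, adjusted p = 0.140). Fuca1, which removes fucose, had a log2 difference of -0.39, and the nucleoside transporter gene Slc29a3 one of -0.34.

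The low genes Hyal1, a hyaluronidase (53.1, 56.6 and 43.8 against 25.0, 15.2 and 34.1), and Dnase2a, which digests DNA (64.1, 88.4 and 66.9 against 55.9, 50 and 24.6), had log2 differences of -1.08 and -0.80. Rragd was the reverse. It encodes a Rag GTPase that links the lysosome's amino acid state to the kinase mTOR, and it stood at 1619, 1723 and 1888 against 2881, 2279 and 2089 (log2 0.46, SE 0.13, adjusted p = 0.175).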

How the data were processed

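Polyadenylated RNA of brain was sequenced in 6 libraries. The authors deposited log2 values for 56748 mouse genes. The submitters' processing notes name the build GRCm39. No source used here names the aligner, counter, annotation or scaling method. After 2 was raised to each value and the pseudocount of 1 removed, the values of a library were multiples of a single step, whole to 0.001 reads in 100% of cases. Normalized counts are thus reads over a size factor (0.822 to 1.12). Symbols came from GENCODE M21.

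Because the deposited unit is log2, no count model was used. The 16162 genes whose mean normalized count reached 10 entered limma (3.58.1, under R 4.3.3) on the deposited scale, with group as the only term, an intensity trend, two-sided tests and Benjamini-Hochberg adjustment at 0.05. This scale understates changes of low genes. The procedure was checked on simulated data with changes of 2-fold or more and no libraries of unlike composition. Most differences described here were smaller, so the check does not bear on calls of that size. The genes, lists and tests were chosen with earlier results of these data known. By rule, values by library were given for genes whose groups did not overlap, for the 10 largest differences and for at most 12 further genes by role. Further lysosomal genes were named where they were among the 8 largest differences without overlap. Markers were named only from the first 3 of a list, apart from Ttr and Slc1a2. The summed levels of 10 endothelial markers (2646 to 4483 at day 3, 3053 to 3239 at day 28) overlapped. Those of 16 long transcripts, which are sensitive to RNA degradation, also overlapped (92988 to 124490 and 115275 to 120583). That overlap came from day 3 replicate 1 (124490), while replicates 2 and 3 (92988 and 97799) lay below every day 28 library. On the log2 scale 0 of the 16 were lower at day 28, with a median of 0.17. For 5 of them the groups did not overlap, where 9.71% of all tested genes were higher in that way. The part of RNA quality in the lysosomal difference was not tested. Replicates of a group differed beyond sampling noise, with a chi-square of 9.00 or more per degree of freedom. Alternatives were other pseudocounts, filters, scalings, variance models, covariates, a replicate block and single libraries left out.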

Additional observations from a re-analysis of the deposited data

How the results depend on the processing

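The count of lysosomal genes called was 0 in the 20 alternative fits but that without day 3 replicate 3, so that the range with single libraries left out was 0 to 3, and it was also 0 at an adjusted p under 0.10. The further lysosomal genes gave 0 throughout. The median log2 difference of the lysosomal genes stayed negative, at -0.23 to -0.17 with single libraries left out, -0.15 with upper-quartile scaling and -0.15 without both day 3 libraries rich in cerebellar transcripts, a setting chosen after the data were seen, as were voom on total reads and the recounts of overlap. The genes lower without overlap numbered 16 and ran from 11 with upper-quartile scaling (7.10% of all genes) to 24 without both those libraries (30.8% of all genes), with 18 to 21 where 1 library was left out (12.4% to 18.9% of all genes). Fewer libraries make overlap rarer for any gene. Without both, day 3 is a single library, which the fit assumes to vary like those of day 28. Of 860 values of single genes over the alternatives, 28 had the other sign, in 13 genes, and none of these passed. The count over all genes, 31, was 68 without a filter, 48 with upper-quartile scaling, 3 without the trend, 69 with array weights, 0 with voom, 16 with voom on total reads, 2 with the cerebellar covariate, 139 with the microglia covariate, 0 without both cerebellar-rich libraries, 152 at an adjusted p under 0.10 and 1 to 623 with single libraries left out.

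With the replicate block, 0 genes were called over all genes and 0 of the lysosomal genes. Libraries with the same number did not deviate together, with correlations of 0.03, 0.13 and -0.06 for numbers 1 to 3, so the numbers were not taken as pairs.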
